A study of Mus musculus with 2 samples.

Results

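Small leucine-rich proteoglycans are a family of secreted matrix proteins, and 10 of their genes were followed here in astrocytes cultured from the dentate gyrus (DG). The genes were Dcn, Bgn, Lum, Fmod, Prelp, Optc, Ogn, Omd, Aspn and Kera. They were found by gene symbol among the 16302 symbols that the expression tables of the WT and β-arr1 KO libraries hold together. The family was selected on the FPKM ratio of KO vs. WT, which was known when it was chosen, so these ratios are given as a description and no test was made on them. WT mice and mice with a knockout of β-arr1 (gene Arrb1), both on a C57BL/6 background (C57BL/6J in the study's methods), gave the cells. Per the study's methods, the KO mice used came in part from homozygous lines bred apart from WT, and cells of the adult DG were grown in medium with serum and then shaken to take off precursors and neurons. There was 1 library per genotype. Samples were taken from 3 mice in each group, and whether all of them entered the sequenced library, and their exact age, are not given in the sources used here. The spread between mice or cultures is therefore unknown, no p-value was computed, and culture and genotype cannot be told apart. Arrb1 itself was at 7.62 (WT) vs. 2.72 FPKM (KO), a ratio of 0.358. FPKM counts sequenced fragments, scaled for the length of the transcript and the depth of the library, which allows levels of different genes to be compared within a library.

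Proteins of this family share a core of leucine-rich repeats that bends into an arch and binds to collagen fibrils. Many of them carry chains of sulfated sugars, which are of the chondroitin or dermatan sulfate type in decorin and biglycan and of the keratan sulfate type in fibromodulin and lumican. They set the width and spacing of collagen fibrils and bind growth factors of the TGF-β family. In the brain, they are known best from the meninges and the walls of blood vessels, and cultured astrocytes can also make some of them. The family is divided by sequence into classes, of which class I holds Dcn, Bgn and Aspn, class II holds Lum, Fmod, Prelp, Kera and Omd, and class III holds Ogn and Optc.

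The astrocyte cultures held 3 abundant members, Bgn, Fmod and Prelp, and a tail of members at low levels. These 3 genes made up 97.2% of the summed FPKM of the family in WT and 98.9% in KO. In KO, Optc and Dcn were the lowest relative to WT, with ratios of 0.122 and 0.136, while the 3 abundant genes lay within the limits that the study set for a change, a ratio above 3/2 or below 2/3. Of the 10 genes, 9 had a row in the WT table and 8 in the KO table. The family summed to 1132 (WT) vs. 1064 FPKM (KO), a ratio of 0.940. Without Bgn, the sum was higher in KO, at 360.5 and 434.5 FPKM, a ratio of 1.21. The family's share of all FPKM was 0.302% in WT and 0.285% in KO.

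**Figure D1:**
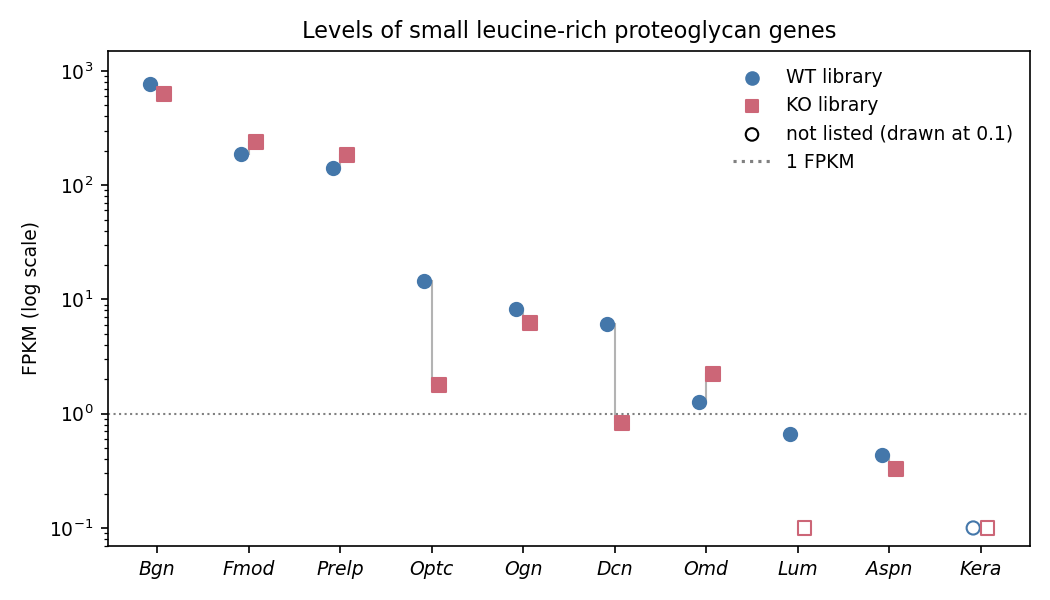
Level of each gene in FPKM on a log scale, with a circle for the WT library and a square for the KO library. Open symbols, drawn at 0.1, stand for genes with no row in that table, and the dotted line marks 1 FPKM. Bgn, Fmod and Prelp lie above 100 FPKM in both libraries, and the widest gaps between the libraries are those of Optc and Dcn.

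Bgn encodes biglycan, a class I proteoglycan with chondroitin or dermatan sulfate chains that binds collagen and can also act as a soluble ligand of Toll-like receptors. Its gene (NCBI gene 12111) lies on the plus strand of chromosome X, with a row from 70728974 to 70741275 in mm9, the genome build of the files. Bgn was at 771 (WT) vs. 629 FPKM (KO). It ranked 32 from the top among the gene symbols of the WT table and 46 in the KO table. The ratio was 0.816. An estimated 16224 and 13623 fragments lay behind these levels, and the 95% interval of the ratio was 0.797 to 0.835. Such intervals (exact Clopper-Pearson, from fragment numbers estimated as described under the processing) cover counting error alone, and 40.9% of 11841 genes had an interval that left out 1. The level of Bgn was 4.13 times that of Fmod in WT and 2.63 times in KO.

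Fmod and Prelp are class II members. Fibromodulin carries keratan sulfate and regulates the crosslinking of collagen, and prolargin, the product of Prelp, anchors basement membranes to the matrix around them. Fmod (NCBI gene 14264; chromosome 1, plus strand, 135934092 to 135944854) was at 187 (WT) vs. 239.7 FPKM (KO). Prelp (NCBI gene 116847; chromosome 1, minus strand, 135806882 to 135817978) was at 143 (WT) vs. 183 FPKM (KO). Both were higher in KO, with a ratio of 1.28 for Fmod (interval, 1.24 to 1.33) and 1.29 for Prelp (interval, 1.24 to 1.34), and these intervals overlapped almost entirely. The level of Fmod over that of Prelp was 1.31 in both libraries. In the annotation, Prelp shares 350 exonic bases with the antisense gene Gm15851, which had no row in either table. As the sources used here do not say that strand was read, fragments of these bases cannot be assigned to either gene.

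Optc encodes opticin, a class III glycoprotein first described in the vitreous of the eye, where the ciliary epithelium secretes it. Its row (NCBI gene 269120) runs from 135793771 to 135804576 on the minus strand of chromosome 1. Optc was at 14.5 (WT) vs. 1.77 FPKM (KO). The estimated fragments numbered 238 and 30, which gave an interval of 0.0805 to 0.179 around the ratio of 0.122 (log2 ratio, -3.03). Among 12171 genes with at least 1 FPKM in either library and a row in both tables, 16 had a lower ratio. In WT it was the fourth member by level, above 68.0% of the genes in the table, and in KO it was above 26.3% of them. In bulk RNA, fewer cells that express a gene and less RNA per cell cannot be told apart, and this holds for all members.

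Dcn encodes decorin, the class I proteoglycan closest to biglycan, which binds TGF-β and collagen type I and can inhibit the receptors for EGF and HGF. Its row (NCBI gene 13179) runs from 96942134 to 96980796 on the plus strand of chromosome 10. Dcn was at 6.11 (WT) vs. 0.831 FPKM (KO). Its ratio of 0.136 (log2 ratio, -2.88) rested on an estimated 92 and 13 fragments, with an interval of 0.0698 to 0.244, and 24 of the 12171 genes had a lower ratio. The intervals of Dcn and Optc overlapped. Thus the level of Bgn was 126 times that of Dcn in WT and 757 times in KO, the latter from about 13 fragments of Dcn. With 1 FPKM added to both libraries, the ratio of Dcn was 0.258, still below 2/3.

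Ogn and Omd encode osteoglycin (class III) and osteomodulin (class II), which are named after bone and are also made in other connective tissues. Ogn (NCBI gene 18295; chromosome 13, plus strand, 49703440 to 49719869) was at 8.27 (WT) vs. 6.20 FPKM (KO), a ratio of 0.749. Its interval of 0.599 to 0.936 left out 1 and included 2/3. Omd (NCBI gene 27047; chromosome 13, plus strand, 49678116 to 49687978) was at 1.26 (WT) vs. 2.25 FPKM (KO). Its ratio of 1.78 was above 3/2, but with an estimated 17 and 31 fragments the interval reached from 0.957 to 3.43, and no difference was detectable at this depth. The level of Ogn was 6.56 times that of Omd in WT and 2.76 times in KO.

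The remaining 3 members were under 1 FPKM or without a row. Asporin, the product of Aspn, is a class I member rich in aspartate that binds TGF-β. Aspn (NCBI gene 66695; chromosome 13, plus strand, 49639812 to 49662931) was at 0.436 (WT) vs. 0.330 FPKM (KO), from about 9 and 7 fragments, and its interval of 0.239 to 2.28 spanned both limits. Lum encodes lumican, a keratan sulfate proteoglycan needed for a clear cornea. Lum (NCBI gene 17022; chromosome 10, plus strand, 97028135 to 97035337) was at 0.660 FPKM in WT, an estimated 12 fragments, and the KO table as used here had no row for it. A single Lum fragment in the KO library would correspond to 0.0535 FPKM, and 3 fragments to 0.161 FPKM. As the tables hold no counts, no ratio was formed for Lum. Kera, which encodes keratocan of the cornea, had no row in either table as used here and was not analysed.

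At least 1 FPKM in at least 1 library was reached by 7 members, and 2 of them (Optc and Dcn) were below 2/3, 1 (Omd) was above 3/2 and 4 lay between. Of all 12646 genes that reached this level, 8.28% were below 2/3 and 9.56% above 3/2, together 17.8%. Among those with a row in both tables, as all 7 members had, 6.74% were below 2/3 and 7.90% above 3/2. The study, with the same limits but another set of genes, reported a smaller share as changed. The members were chosen with these ratios in view, so nothing is read from the difference between these shares. Past the stricter limits of 2 and 1/2 were Optc and Dcn, both below 1/2, as were 4.42% of all genes, while 9.20% were past either. The median log2 ratio was -0.29 over the 7 members and 0.02 over the 12171 genes with a row in both tables. The interval left out 1 for 6 of the 8 members that had a ratio, and for 40.9% of 11841 genes analysed. The exceptions among the members were Omd and Aspn, and nothing is read from these shares either. For these 8 members, the row had the same bounds in both tables.

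**Figure D2:**
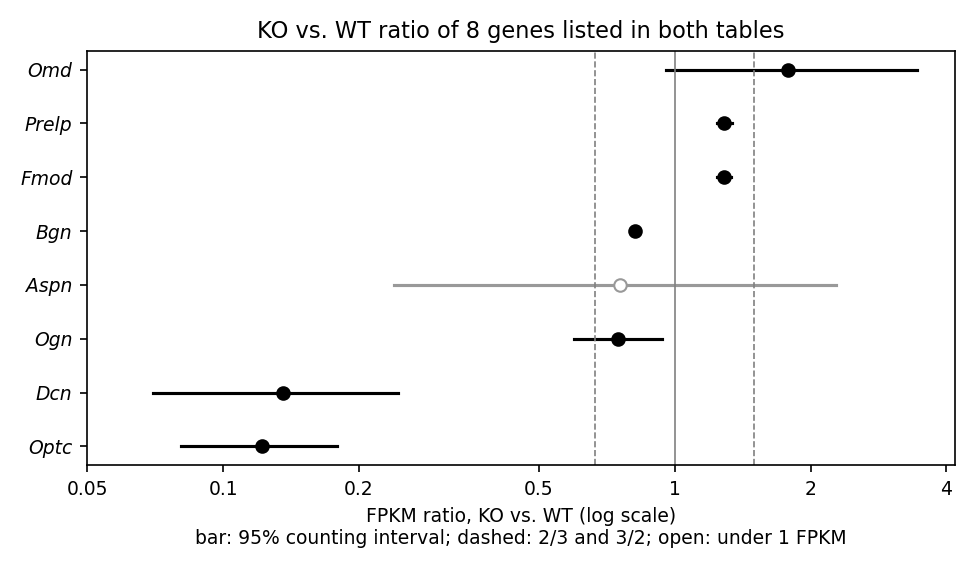
Ratio of FPKM, KO vs. WT, on a log scale for the 8 members with a row in both tables. The bars are 95% intervals that cover counting error only, the dashed lines mark 2/3 and 3/2, and the open symbol is Aspn, which was under 1 FPKM in both libraries. Optc and Dcn lie far below 2/3, Fmod and Prelp share a ratio near 1.28, and the bar of Omd crosses 1.

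The order of the levels differed between the libraries. In WT it was Bgn, Fmod, Prelp, Optc, Ogn, Dcn, Omd, Lum and Aspn. The counting intervals of neighbours in this order overlapped for Ogn and Dcn, for Omd and Lum, and for Lum and Aspn. In KO the order was Bgn, Fmod, Prelp, Ogn, Omd, Optc, Dcn and Aspn, and the intervals overlapped between Omd and Optc, Optc and Dcn, and Dcn and Aspn. By class, class I summed to 778 and 630.4 FPKM, class II to 331 and 425 FPKM, and class III to 22.8 and 7.97 FPKM in WT and KO. All 3 class II members that were analysed (Fmod, Prelp and Omd) had a ratio above 1, though the interval of Omd included 1. Lum, also of class II, was not among them, at 0.660 FPKM in WT and without a row in KO. The 4 members of classes I and III that were analysed (Bgn, Dcn, Ogn and Optc) had a ratio below 1. With so few genes, this split by class is a description only.

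Apart from Bgn, the members lie in 3 clusters on the genome. Ratios above and below 1 stood side by side on chromosomes 1 and 13, whereas on chromosome 10 both ratios that could be formed were below 1. On chromosome 1, Optc lies 2305 bases downstream of Prelp on the same strand, and Fmod lies 116113 bases beyond the start of Prelp. Here the ratio was 0.122 for Optc and 1.29 for its neighbour Prelp. The next rows on either side, Atp2b4 (ratio 1.26) and Btg2 (ratio 0.940), lay within the limits. On chromosome 10, Dcn, Lum, Kera and Epyc follow each other on the plus strand, with 47338, 34479 and 30379 bases between them. Both rows that the KO table had here, Dcn and Epyc, were at lower values than in WT. Epyc, which encodes epiphycan of cartilage, was at 0.203 and 0.0656 FPKM, a level of few fragments with an interval of 0.0308 to 1.98. On chromosome 13, Ecm2, Aspn, Omd and Ogn lie within the span of Cenpp, a kinetochore gene on the opposite strand. Cenpp was at 4.97 (WT) vs. 6.02 FPKM (KO), above the levels of Ecm2, Aspn and Omd. In the annotation, no exonic base of Aspn, Omd or Ogn is shared with Cenpp, but fragments of its unspliced RNA in this span cannot be separated from them without strand. With the Cenpp row added, the ratio of Omd was 1.33 and no longer above 3/2. That of Ogn was then 0.923, nearer to 1 than the 0.749 without it. Ecm2, a related gene of the same cluster, was at 0.551 and 0.982 FPKM, with a ratio of 1.78 and an interval of 0.976 to 3.37.

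**Figure D3:**
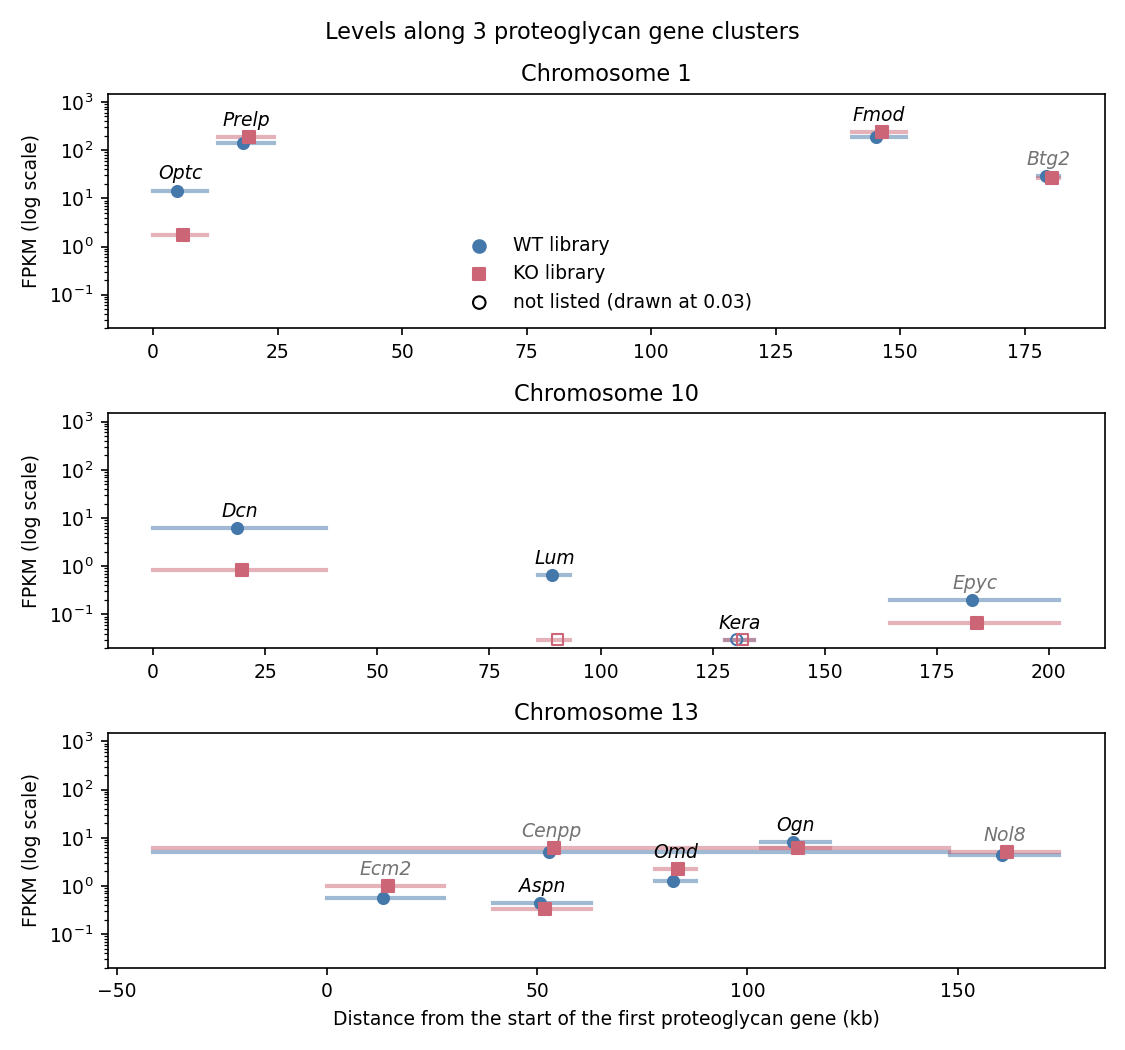
Levels in FPKM on a log scale along the clusters on chromosomes 1, 10 and 13, with the distance in kb from the first proteoglycan gene of each. Each line spans a gene's row, circles and blue lines are WT, squares and red lines are KO, open symbols drawn at 0.03 have no row in that table, and grey names are genes outside the list. Optc and Prelp lie side by side with opposite shifts, the genes on chromosome 10 lie lower in KO or have no row, and Cenpp spans the cluster on chromosome 13.

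Promoter sequences were compared because Optc and its neighbours Prelp and Fmod, and the most abundant member Bgn, differed so much in level and ratio. RefSeq starts (GRCm38.p6) were found for 8 members, all but Dcn and Lum. The last 120 bases before the start are given for these 4 genes, 5′ to 3′ on the strand of the gene, at chrX:73483481-73483600 (plus) for Bgn, chr1:134037134-134037253 (plus) for Fmod, chr1:133921402-133921521 (minus) for Prelp and chr1:133908000-133908119 (minus) for Optc. These coordinates belong to another build than those of the rows. Capitals mark matches, on either strand, to the motifs searched.
Bgn: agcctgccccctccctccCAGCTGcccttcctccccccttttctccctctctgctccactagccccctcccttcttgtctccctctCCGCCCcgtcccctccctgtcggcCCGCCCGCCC
Fmod: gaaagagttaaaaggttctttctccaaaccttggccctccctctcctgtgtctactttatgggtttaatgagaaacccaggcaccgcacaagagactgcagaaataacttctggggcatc
Prelp: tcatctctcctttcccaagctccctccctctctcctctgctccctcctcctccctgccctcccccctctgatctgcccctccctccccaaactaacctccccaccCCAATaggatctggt
Optc: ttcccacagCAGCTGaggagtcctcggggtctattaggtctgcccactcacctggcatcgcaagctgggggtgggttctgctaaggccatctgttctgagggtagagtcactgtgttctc

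In the 250 bases before each start, 6 motifs were searched on both strands. These were the TATA box TATAAA (in 12.4% of 32851 promoters), the CCAAT box CCAAT (33.8%), the GC box GGGCGG (32.7%), the AP-1 element TGANTCA (6.75%), the nuclear receptor element AGGTCA (14.0%) and the E-box CAGCTG (13.0%). Bgn held 3 GC boxes, at -34, -10 and -6 from the start, the last pair overlapping, and an E-box. Prelp held a CCAAT box at -15, Optc an E-box at -111, and Fmod none of the 6. As Fmod held none, it could share no motif with Prelp, whose ratio was nearly the same. AGGTCA was found in Omd alone, and TGANTCA in none of the 8. A match of letters is not a binding site, and no match says only that these letters are not in this window. The 4 members with the highest levels in WT also had the promoters with the most G and C, from 51.2% in Fmod to 64.4% in Bgn, around a median of 52.4% over all promoters. In Ogn, Omd, Aspn and Kera it was 30.0% to 42.4%. This is a description of 8 genes, of which 3 share a cluster on chromosome 13.

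Of 8 other family genes, outside the list, 3 reached 1 FPKM, and the 2 of them with a row in both tables lay within the limits. Tsku, which encodes tsukushi, an inhibitor of BMP and Wnt signals, was at 17.8 and 16.6 FPKM (ratio 0.935). Podn, which encodes podocan, was at 8.89 and 9.16 FPKM (ratio 1.03). Chadl had a row in WT only, at 1.24 FPKM or an estimated 37 fragments, and its row overlaps that of L3mbtl2. Among genes with a row in both tables, 6.74% of all genes analysed were below 2/3 and 7.90% above 3/2, and the counts of the following lists stand beside these shares.

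The sugar chains of the family are built by enzymes whose genes mostly lay within the limits. For the linker that joins a chain to the protein, 5 genes lay within the limits, from Xylt2 at a ratio of 0.696 to Xylt1 at 6.78 and 9.47 FPKM, led in level by Fam20b (20.3 and 18.7 FPKM) and B3gat3 (19.5 and 20.1 FPKM). Of 15 genes for chondroitin and dermatan sulfate, 2 were above 3/2, 2 below 2/3 and 11 between. The chain polymerase genes Chpf (56.2 and 52.5 FPKM) and Chpf2 (47.2 and 42.1 FPKM) had the highest levels. The sulfotransferase genes Chst7 (5.85 and 9.71 FPKM, ratio 1.66) and Chst3 (1.01 and 1.58 FPKM, ratio 1.56), both of which add sulfate to chondroitin, were above 3/2. Chst15, another sulfotransferase gene, was at 5.28 and 3.07 FPKM, a ratio of 0.581. Chsy3, named after its value was seen, had a ratio of 0.479 at 1.83 and 0.879 FPKM. For keratan sulfate, all 6 genes analysed lay within the limits, with Chst2 at 25.8 and 36.6 FPKM (ratio 1.42) and B4galt1 at 23.7 and 17.0 FPKM (ratio 0.716). The tyrosine sulfotransferase genes Tpst1 and Tpst2, whose products can sulfate fibromodulin and osteomodulin, had ratios of 1.05 and 1.01.

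Fibrillar collagens are the main partners of the family in the matrix. Of 13 genes for these collagens and for crosslinking enzymes with a row in both tables, 3 were below 2/3, 2 above 3/2 and 8 between. Col1a1 had 420.5 FPKM in WT against 237 FPKM in KO, and its ratio was 0.564, with an interval of 0.552 to 0.577. Col1a2 was at 92.3 and 34.3 FPKM (ratio 0.371) and Col3a1 at 88.3 and 43.3 FPKM (ratio 0.490). Thus the transcripts of collagen types I and III, which decorin binds, were lower in KO, as was Dcn. Fmod and Prelp, of the same family, were higher (ratios 1.28 and 1.29), and a link to these collagens was not tested. Col5a2, the second highest of the list, was within the limits at 286 and 342 FPKM. The cartilage collagen genes Col2a1 (3.07 and 5.87 FPKM, ratio 1.91) and Col11a2 (1.83 and 2.93 FPKM, ratio over 3/2) were above 3/2, the latter named after its value was seen. Loxl3 had a row in KO only, at 90.8 FPKM, and in WT its place was overlapped by rows of Aup1 (95.1 FPKM) and Htra2 (22.6 FPKM), so no change is read from it. For lecticans, the chondroitin sulfate proteoglycans typical of brain matrix, Ncan (neurocan) was above 3/2, at 61.8 and 110 FPKM (ratio 1.78), and Bcan and Vcan were within the limits. Vcan was at 14.6 and 14.1 FPKM.

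Proteases cut the family's core proteins or their propeptides. Of 8 such genes with a row in both tables, 3 were below 2/3, none above 3/2 and 5 between, with a median log2 ratio of -0.50. Mmp2, which encodes gelatinase A, was at 137 and 50.9 FPKM (ratio 0.371), and its row reached further in WT than in KO. Adamts4 and Adamts5, the aggrecanase genes, had ratios of 0.575 (5.93 and 3.41 FPKM) and 0.655 (9.54 and 6.25 FPKM). Mmp14 was within the limits, at 133 and 121 FPKM. Mmp3 had a row in KO only, at 5.23 FPKM, and in WT a row of Mmp10 at 5.69 FPKM overlapped its place. Of 15 genes for growth factors and receptors that these proteoglycans bind, 3 were below 2/3 (Egfr, Wisp1 and Tgfbr3), 1 above 3/2 (Met) and 11 between. Egfr and Met, both receptors that decorin inhibits, lay past opposite limits, Egfr at 24.4 and 14.5 FPKM (ratio 0.593) and Met at 4.91 and 8.13 FPKM (ratio 1.66). Wisp1 was at 23.6 and 14.3 FPKM (ratio 0.607) and Tgfbr3 at 3.21 and 1.99 FPKM (ratio 0.620). Lrp1 (183 and 156 FPKM) and Cd44 (120.5 and 152 FPKM) had the highest levels of this list. Mmp2 was not the only named gene past the limits whose row bounds differed between the libraries. Across these related lists, this held also for Col3a1, Col11a2, Adamts4, Wisp1, Met, Chst15 and Chsy3.

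**Figure D4:**
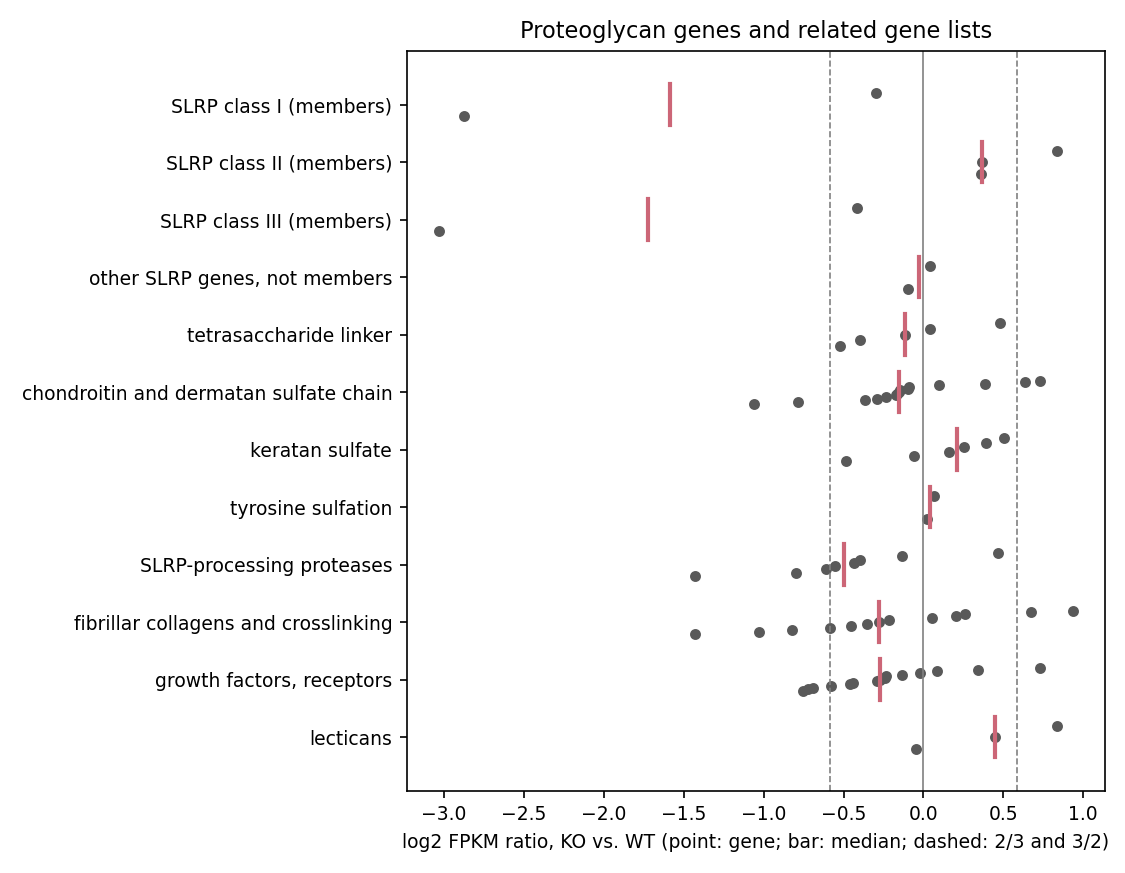
Each point is the log2 ratio of FPKM, KO vs. WT, of 1 gene with at least 1 FPKM in either library and a row in both tables, and each red bar is the median of a list. The dashed lines mark 2/3 and 3/2. Dcn and Optc, at -2.88 and -3.03, lie below every gene of the other lists, and most genes for sugar chains lie between the dashed lines.

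Cell type markers were set beside these results, since Dcn and Lum are also markers of fibroblasts. Astrocyte markers had a row for all 10 genes in both libraries and summed to 448 (WT) vs. 507 FPKM (KO), with 4 above 3/2 and none below 2/3. Gfap was at 189 and 192 FPKM, and Aqp4 at 7.05 and 13.5 FPKM. Of 11 markers of fibroblasts and meningeal cells, none of them a member, 6 were below 2/3 and 1 above 3/2, and the 12 genes of the list summed to 362 (WT) vs. 247 FPKM (KO). Most of each sum was Fbln2 (216 and 128 FPKM). The 6 below 2/3 were Foxc1, Foxd1, Aldh1a2, Fbln1, Fbln2 and Crabp2. Slc6a13 was at 0 in WT and at 0.0515 FPKM in KO. Of 3 choroid plexus markers at 1 FPKM or more, 2 were below 2/3, and the list of 5 genes summed to 84.7 and 22.4 FPKM. Its defining marker, Ttr (transthyretin), was at 23.8 (WT) vs. 0.290 FPKM (KO), a ratio of 0.0122, and Folr1 was at 53.1 and 13.6 FPKM. The third, Aqp1, was at 7.65 and 8.38 FPKM (ratio 1.10). Among the fibroblast markers, Pdgfra (ratio 1.93), Islr (1.19), Thy1 (1.07) and Col6a3 (1.04) had a ratio above 1. The part of these cells in the values of Optc, Dcn and Lum was not tested. The other lists summed to 2522 and 2516 FPKM for mural cells (Pdgfrb and Kcnj8 not analysed) and 44.9 and 35.6 FPKM for endothelium. Sums were 307 and 267 FPKM for microglia, 54.9 and 75.7 FPKM for oligodendrocytes and 37.2 and 44.2 FPKM for neurons (Map2 not analysed). Most of the WT sum was Acta2 (2478 FPKM) for mural cells and Cdh5 (31.8 FPKM) for endothelium. It was Olig1 (32.6 FPKM) for oligodendrocytes and Stmn2 (36.6 FPKM) for neurons. Of 5 mural genes analysed, 1 was below 2/3 and 4 lay between, with a median log2 ratio of -0.44. Of 5 endothelial genes, 2 were above 3/2, 1 (Cdh5) was below 2/3 and 2 lay between, with a median of 0.52.

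**Figure D5:**
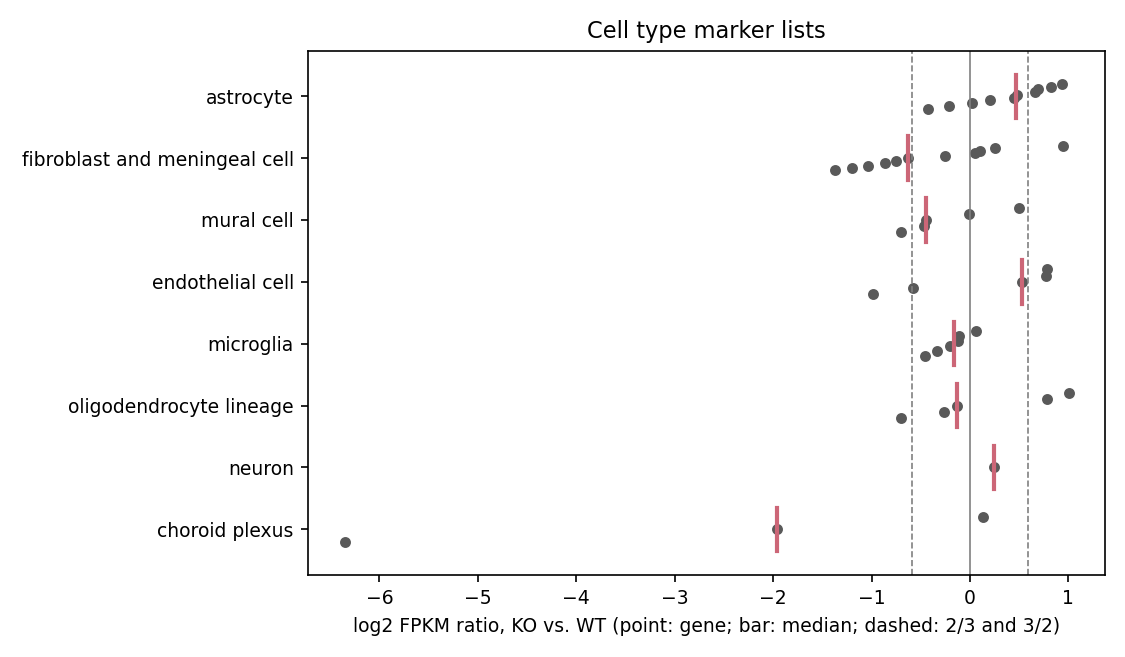
Log2 ratio of FPKM, KO vs. WT, for genes of 8 marker lists, drawn as in the plot of related gene lists. Markers of fibroblasts and of choroid plexus lie mostly below 2/3, with Ttr lowest of all, and astrocyte markers lie mostly above 0.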

How the data were processed

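RNA of cultured WT and KO astrocytes was sequenced, in 1 library per genotype. The authors aligned the read pairs to mm9 (TopHat 1.4.0 per the submitters' processing notes), ran Cufflinks and deposited 1 FPKM value per gene row. The annotation and strand setting are not given in the sources used here. Tables were joined by symbol (highest row per symbol), and a missing gene was taken as 0. Starts were raised by 1, so that coordinates count from 1. They were compared with GENCODE vM1 of NCBIM37, the same assembly as mm9, where 3 starts and 5 ends of 9 members were equal. Genes with at least 1 FPKM in either library were analysed, without a pseudocount.

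Fragments were estimated from the steps of values under 0.15 FPKM in genes with 1 transcript over 1000 bases. About 70.1% of 411 such genes in WT and 71.0% of 428 in KO lay within 5% of a step of 1 to 3 fragments, at 9.53 M and 9.81 M mapped fragments. The longest GENCODE transcript, less 170 bases, set the length. A gene with a shorter transcript has fewer fragments than estimated. The computation of the estimate, the limits and the intervals was tried on simulated counts drawn with the longest transcript lengths. Such counts cannot show which transcript was expressed or how cultures vary.

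Members and lists were chosen with earlier results of these data known. Named were all members, and in each list up to 4 genes with the largest ratios past the limits (at least 1 FPKM in the lower library) and the 2 with the highest mean. Alternatives were pseudocounts, scalings, minimums, summed rows, stricter limits and a shorter transcript length. Computations used scipy 1.17.1, pandas 2.3.3 and numpy 2.4.6 under Python 3.11.15, and plots matplotlib 3.10.9.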

Additional observations from a re-analysis of the deposited data

How the results depend on the processing

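Optc stayed below 2/3 under all 7 alternatives that recompute its ratio (0.120 to 0.179), and so did Dcn (0.134 to 0.258). Bgn (0.801 to 0.818), Fmod (1.26 to 1.29), Prelp (1.26 to 1.29) and Ogn (0.736 to 0.923) stayed within the limits. Omd ranged from 1.33 to 1.79 and Aspn from 0.743 to 1.18, the latter crossing 1 when the Cenpp row was added. The count of 1 member above 3/2 was 0 with a pseudocount of 1 FPKM, with overlapping rows added, with a minimum of 5 FPKM and with limits of 2 and 1/2. The count of 2 members below 2/3 was 1 with a minimum of 1 FPKM in both libraries, since Dcn was under it in KO, and 3 with no minimum, where Lum, without a KO row, was counted too. For genes of the related lists, an alternative chosen after seeing the data, 8 were above 3/2 and 12 below 2/3. These counts included Mmp3, Loxl3 and Chadl, which had a row in 1 table. Of all 12646 genes analysed by the same rule, 9.56% were above 3/2 and 8.28% below 2/3. Limits of 2 and 1/2 left 2 and 5 genes of these lists, while 9.20% of all genes were past either. The 2 were Mmp3 and Loxl3, both without a row in WT, and the 5 included Chadl, without a row in KO. The 6 intervals that left out 1 were as many with the shortest coding transcript. Rescaling shifted all ratios by at most 0.03 on the log2 scale. No paired analysis was possible because there was 1 library per genotype, and no library could be left out. Members under 1 FPKM rested on about 12 fragments or fewer, which limits what can be said of Lum and Aspn.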
